A study of Mus musculus with 6 samples.

Results

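Receptors for the transmitter GABA and the cotransporters that set the chloride gradient they act on were followed by 7 genes of the 17418 in the single-cell table: *Gabra2*, *Gabra5* and *Gabrb2* (GABA-A receptor subunits), *Gabbr1* and *Gabbr2* (the GABA-B receptor subunits), and *Slc12a2* and *Slc12a5* (the chloride cotransporters NKCC1 and KCC2). The genes were chosen by name, and all 7 had rows in the table. Their counts of unique molecular identifiers (UMIs, each standing for 1 captured mRNA) were summed per mouse and cell subtype, leaving out cells that the authors marked as doublets. The data came from InDrop sequencing of cells from the cerebral cortex, both hemispheres, of mice at postnatal day 5 (P5). Wild type (WT) animals were of the strain FVB.129P2-Pde6b+ Tyrc-ch/AntJ, and *Fmr1*-KO animals carried the Fmr1tm1Cgr allele on the same background (FVB.129P2-Pde6b+ Tyrc-ch Fmr1tm1Cgr/J), with 3 mice of each genotype and both sexes in use. The knock-out is constitutive, so every cell type carries it from the start of development. The mice were collected in 2 batches: WT 1, *Fmr1*-KO 1 and *Fmr1*-KO 2 with version 2 beads, and WT 2, WT 3 and *Fmr1*-KO 3 with version 3.8 beads. Batch and bead version cannot be told apart.

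GABA-A receptors are chloride channels built from 5 subunits, and the alpha subunit sets much of their pharmacology and place on the cell: receptors with alpha2 are found at synapses and those with alpha5 largely outside them. GABA-B receptors couple to G proteins and need both subunits, *Gabbr1* binding GABA and *Gabbr2* carrying the receptor to the surface and coupling it to the G protein. NKCC1 carries chloride into the cell and KCC2 carries it out. In the newborn cortex NKCC1 prevails in immature neurons, in which GABA depolarizes, and KCC2 rises as they mature.

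Sequence before the start of 4 of the genes is shown for the 2 pairs compared below: *Gabra5* and *Slc12a5*, the 2 members whose levels followed the same pattern over the subtypes most closely, and the partner subunits *Gabbr1* and *Gabbr2*. Each is RefSeq sequence of build GRCm38.p6, 5′ to 3′ along the gene's strand, taken from the 250 bases before the RefSeq start, without bases that the GENCODE annotation places inside the gene. Capitals mark GGGCGG on either strand (written CCGCCC where it lies on the other), the letters of a GC box.
*Gabra5*, chr7:57510060-57510309, - strand: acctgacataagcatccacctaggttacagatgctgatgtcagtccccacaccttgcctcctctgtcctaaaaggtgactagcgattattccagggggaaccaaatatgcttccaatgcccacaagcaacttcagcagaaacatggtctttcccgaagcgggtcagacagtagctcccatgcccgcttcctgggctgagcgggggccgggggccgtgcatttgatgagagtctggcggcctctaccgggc
*Slc12a5*, chr2:164960596-164960801, + strand: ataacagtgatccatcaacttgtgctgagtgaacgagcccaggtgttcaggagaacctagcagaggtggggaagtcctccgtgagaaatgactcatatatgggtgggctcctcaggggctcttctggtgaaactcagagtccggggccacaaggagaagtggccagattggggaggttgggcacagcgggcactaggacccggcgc
*Gabbr1*, chr17:37045716-37045965, + strand: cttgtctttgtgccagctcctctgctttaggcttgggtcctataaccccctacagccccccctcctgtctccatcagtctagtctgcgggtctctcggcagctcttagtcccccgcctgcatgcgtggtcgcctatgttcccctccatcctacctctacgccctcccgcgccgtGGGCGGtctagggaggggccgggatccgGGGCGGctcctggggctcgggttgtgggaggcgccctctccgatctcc
*Gabbr2*, chr4:46991874-46991964, - strand: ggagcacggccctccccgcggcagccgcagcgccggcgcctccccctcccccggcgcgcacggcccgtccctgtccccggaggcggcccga
Over the whole 250 bases, the G and C content was 56.4% for *Gabra5*, 61.2% for *Slc12a5*, 66.0% for *Gabbr1* and 80.8% for *Gabbr2*, with 9, 13, 16 and 37 CG dinucleotides. The median over 32851 mouse promoter windows of the same length was 52.4%, with 6 CG dinucleotides. GGGCGG occurred on either strand in 32.7% of those windows. It occurred 2 times each for *Gabbr1* and *Gabbr2*, and not in the windows of *Gabra5* and the first start of *Slc12a5*. Both matches of *Gabbr2* lie in the bases not shown. The letters are a description of these windows and say nothing of any factor's binding. *Slc12a5* has a second RefSeq start, with 67.2% G and C and 1 GGGCGG in its window, which lies inside the gene, and transcripts from either start were counted together.

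The table held 18393 cells in 17 libraries, with totals from 8070039 to 20677233 UMIs per mouse, and 17280 cells remained without doublets. *Fmr1* itself was at 68.4 to 74.1 CPM (UMIs of a gene per 1000000 UMIs of the same mouse and population) in WT cells and at 16.1 to 19.9 in *Fmr1*-KO cells, in accord with the labels (log2 fold change −2.06, SE 0.11, edgeR adjusted p = 0.000677). The 8 astrocyte markers summed to 16994 to 21629 CPM in Astrocytes_1 and to at most 1422 CPM in every neuron population examined, and the 5 pericyte markers to 9199 to 13551 CPM in pericytes. The excitatory subtype was less clean in the first batch: its cells held 764 to 1726 CPM of the 8 interneuron markers there, highest in *Fmr1*-KO 1, and 131 to 252 in the second batch, against 2013 to 2351 in interneurons. These markers include *Sst*, whose pooled level was highest in the excitatory subtype itself (155 CPM). The 4 Cajal-Retzius markers reached 1064 CPM in excitatory neurons of *Fmr1*-KO 1. Of 15463 distinct cell barcodes, 2231 occurred in more than 1 library, on 5161 cells. Values without those cells are given beside several results below. In mm10 the genes lie at chr5:70957597-71095849 (*Gabra2*, minus strand), chr7:57407672-57510059 (*Gabra5*, minus), chr11:42419757-42629028 (*Gabrb2*, plus), chr17:37045966-37075067 (*Gabbr1*, plus), chr4:46662305-46991873 (*Gabbr2*, minus), chr18:57878678-57946821 (*Slc12a2*, plus) and chr2:164960802-164999731 (*Slc12a5*, plus).

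The GABA-A subunits were neuronal to different degrees, and the order below is a description over 15 subtypes (mean ± SD over mice, leaving out any mouse with fewer than 10 of those cells). *Gabra5* was the most restricted. It stood at 90.6 ± 13.3 CPM (n = 6) in excitatory neurons and 45.1 ± 27.9 in interneurons, and at 5.9 or less in each of the other 13 subtypes. Excitatory neurons were 12.5% of the cells and held 75.3% of the *Gabra5* UMIs. No UMI of the gene was seen in 65 cells of the subventricular zone subtype (SVZ), which allows a level of up to 14.4 CPM by counting error alone. *Gabrb2*, a beta subunit, was also highest in excitatory neurons, at 266 ± 27.3 CPM (n = 6). Cajal-Retzius cells (CR, 128 ± 41.9, n = 5), interneurons (96.4 ± 46.6) and the precursors of oligodendrocytes called OPC_1 (82.5 ± 8.83) followed, and these 3 did not differ beyond their spread. *Gabrb2* was lower in both astrocyte subtypes, with 36.5 ± 11.4 CPM in Astrocytes_2 and 20.1 ± 3.50 in Astrocytes_1.

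*Gabra2* had a wider distribution than *Gabra5*. Its mean level was 234 ± 28.0 CPM (n = 4) in SVZ cells, from only 45 UMIs, then 123 ± 56.1 (n = 5) in Cajal-Retzius cells, 98.7 ± 22.7 in excitatory neurons, 75.0 ± 29.9 in Astrocytes_1 and 68.6 ± 18.7 in interneurons. SVZ cells stood apart from Cajal-Retzius cells by more than the SDs, while the next 4 subtypes did not separate. Astrocytes_1 made up 36.9% of the cells and held 65.7% of all *Gabra2* UMIs. In the ganglionic subtype, the progenitors of the ganglionic eminence, *Gabra2* was at 8.54 ± 3.99 CPM from 22 UMIs.

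**Figure D1:**
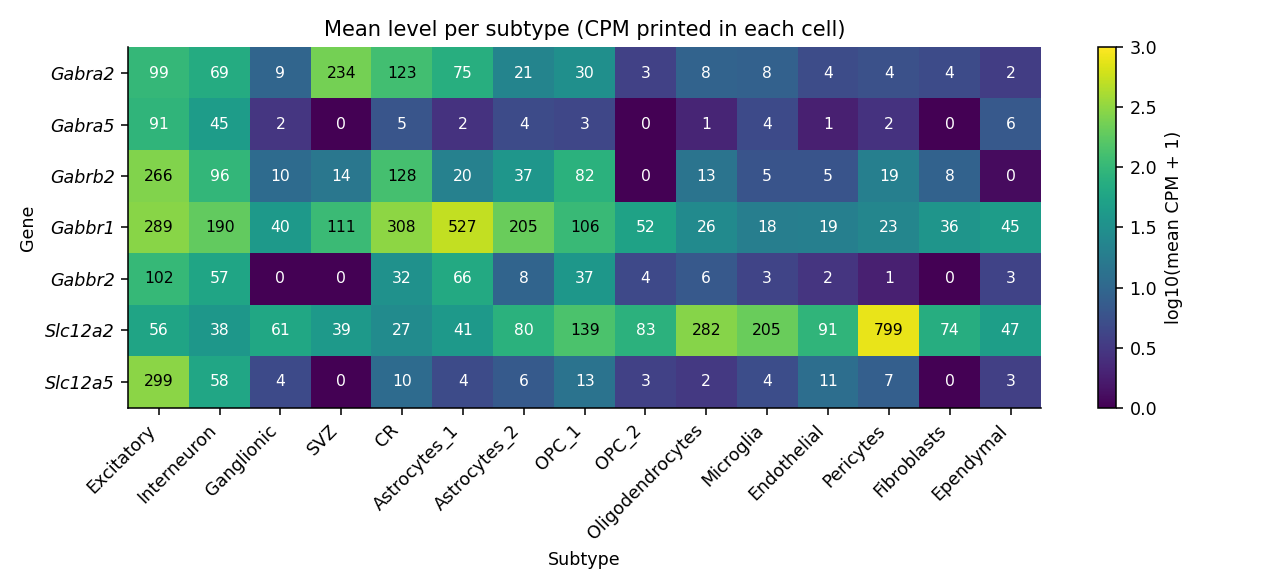
Mean level of the 7 genes in 15 subtypes of the P5 cortex, in CPM averaged over mice with at least 10 cells of the subtype (number in each cell) and coloured by log10(mean CPM + 1). *Gabra5* and *Slc12a5* had their highest levels in excitatory neurons, then interneurons, *Gabbr1* was highest in Astrocytes_1 (527 CPM) and *Slc12a2* in pericytes (799 CPM).

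The GABA-B receptor subunits differed in where they were highest. *Gabbr1* was highest in Astrocytes_1, at 527 ± 72.8 CPM (n = 6), above Cajal-Retzius cells (308 ± 79.8, n = 5) by more than the SDs. Excitatory neurons (289 ± 47.9), Astrocytes_2 (205 ± 65.7) and interneurons (190 ± 26.7) followed, with no neighbours in this order apart by more than their SDs. A UMI of *Gabbr1* was present in 57.4% to 79.2% of Astrocytes_1 cells per mouse, against 2.35% to 7.21% of microglia, a type with little of the gene. With each cell thinned to 700 UMIs the shares were 26.8% to 37.3% in Astrocytes_1 and at most 3.60% in microglia. The median cell held 2114.5 to 7113 UMIs in Astrocytes_1 and 1866 to 3588 in microglia. *Gabbr2* was highest in excitatory neurons, at 102 ± 18.3 CPM, followed by Astrocytes_1 (65.6 ± 18.9) and interneurons (56.6 ± 21.7). Excitatory neurons exceeded Astrocytes_1 in 6 of 6 mice, although the SDs overlapped.

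The ganglionic progenitors held *Gabbr1* but no detected *Gabbr2*. *Gabbr1* was there at 39.8 ± 8.41 CPM (n = 6) from 108 UMIs, while *Gabbr2* had no UMI in 682 cells and 2567269 UMIs, which allows a level of up to 1.17 CPM. Among Astrocytes_1 cells with a *Gabbr2* UMI, 78.5% to 95.6% per mouse also had a *Gabbr1* UMI, against 57.4% to 79.2% of all Astrocytes_1 cells. In excitatory neurons the same shares were 55.3% to 88.5% and 30.0% to 74.0%. Both UMIs become more likely with the depth of a cell, so these shares are a description with no test.

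The 2 chloride cotransporters were highest in different cells. *Slc12a5* (KCC2) was at 299 ± 117 CPM (n = 6) in excitatory neurons and 58.5 ± 18.6 in interneurons, and at 13.0 or less in every other subtype. Excitatory neurons held 81.1% of its UMIs. The share of cells with a *Slc12a5* UMI was 26.1% to 67.5% per mouse in excitatory neurons and at most 3.60% in microglia, with thinned shares of 8.02% to 16.2% and at most 1.01%. The median excitatory neuron held 976 to 8588 UMIs, depending on the mouse. In the ganglionic subtype it was at 3.66 ± 4.89 CPM, at the level of subtypes outside the neuron lineage, and SVZ cells had no UMI of it.

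*Slc12a2* (NKCC1) was found in all 15 subtypes and was highest outside neurons. It was at 799 ± 87.5 CPM (n = 6) in pericytes, the mural cells of small vessels, and 58.6% to 80.0% of pericytes per mouse had a UMI of it (31.4% to 43.1% thinned), against 7.46% to 23.6% of excitatory neurons (at most 4.10% thinned). Oligodendrocytes (282 ± 56.8), microglia (205 ± 69.4) and OPC_1 (139 ± 5.91) followed, of which the first stood below pericytes by more than the SDs, while neighbours among the 3 did not separate. In neurons the level was 60.8 ± 15.3 CPM in the ganglionic subtype, 55.7 ± 16.1 in excitatory neurons and 39.4 ± 62.6 in SVZ cells (n = 4, from 6 UMIs). Interneurons (38.1 ± 9.48) and Cajal-Retzius cells (27.1 ± 15.5) followed, with no neighbours in this order apart by more than their SDs.

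Across the 15 subtypes, with the cells of all mice pooled, Pearson's r of log2(CPM + 1) was highest among members for *Gabra5* and *Slc12a5* (0.899), followed by *Gabra2* and *Gabbr1* (0.860). *Gabbr1* and *Gabbr2* had r = 0.762, and *Slc12a2* was negative against each of the other 6 (−0.59 to −0.10). Subtypes share libraries and depth, so these values carry no test. Among 12332 genes with at least 20 CPM in one of the subtypes, those closest to each member were as follows. For *Slc12a5* they were *Sst* (somatostatin, r = 0.948), *Camkk2* (a kinase that activates CaM kinases, 0.948) and *Pla2g4e* (0.917). The pooled level of *Sst* was highest in the excitatory subtype, at 155 CPM. *Sst* is itself among the interneuron markers summed above, so their sum in that subtype, higher in the first batch, is not separate from it. Whether other cells in the subtype held this *Sst* was not tested, so the match does not show *Sst* in excitatory neurons themselves. The closest to *Gabra5* were *Tcerg1l* (0.971), *Phyhip* (0.909) and *N28178* (0.900). For *Gabra2* they were *Chl1* (an adhesion molecule of the L1 family, 0.957), *Them4* (0.895) and *Nrn1* (neuritin, 0.894), and for *Gabrb2* they were *Car11* (0.914), *Tmem178b* (0.912) and *Xkr6* (0.910). For *Gabbr1* they were *Enho* (0.947), *Ptchd4* (0.922) and *Pfkm* (a phosphofructokinase, 0.921), and for *Gabbr2* they were *Cgref1* (0.939), *Myrip* (0.891) and *Rgs7* (a regulator of G protein signalling, 0.882). *Slc12a2* had the weakest matches, *Sept7* (0.810), *Usp25* (0.803) and *Itga9* (an integrin, 0.793).

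The collection batches differed for several members within a subtype, in opposite directions for different genes. *Slc12a5* in excitatory neurons was at 371 CPM in WT 1, 433 in *Fmr1*-KO 1 and 407 in *Fmr1*-KO 2, all of the first batch. It was at 197 in WT 2, 205 in WT 3 and 180 in *Fmr1*-KO 3. The first batch was thus 2.08 times higher, with no overlap, and with cells thinned to 700 UMIs the ranges were 235 to 352 and 115 to 209 CPM. The genotypes overlapped within these values. In the same cells the 8 excitatory markers summed to 3108 to 3758 CPM in the first batch and 5227 to 5933 in the second, and interneuron markers were higher in the first, as given above. Their part in the batch difference was not tested.

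In interneurons, *Gabrb2* went the other way. It was at 44.1 CPM in WT 1, 50.5 in *Fmr1*-KO 1 and 72.7 in *Fmr1*-KO 2, against 143 in WT 2, 149 in WT 3 and 119 in *Fmr1*-KO 3, so that the second batch was 2.46 times higher. Thinned to 700 UMIs, the batches overlapped (31.3 to 81.8 and 42.5 to 109 CPM). *Gabbr2* in interneurons was at 32.7 to 43.0 CPM in the first batch and 68.6 to 87.1 in the second, and also overlapped when thinned (18.7 to 31.3 and 0 to 54.6). *Gabra2* in Astrocytes_1 was at 43.8 to 53.9 and 96.3 to 111 CPM, and stayed apart when thinned (38.0 to 45.6 and 86.3 to 107). Batches did not overlap for 57.6% of tested genes in excitatory neurons, 37.3% in interneurons and 52.9% in Astrocytes_1, so such a separation was no property of these genes. The edgeR comparisons of genotypes below have batch as a covariate. The ratios and the statements on overlap between genotypes do not.

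**Figure D2:**
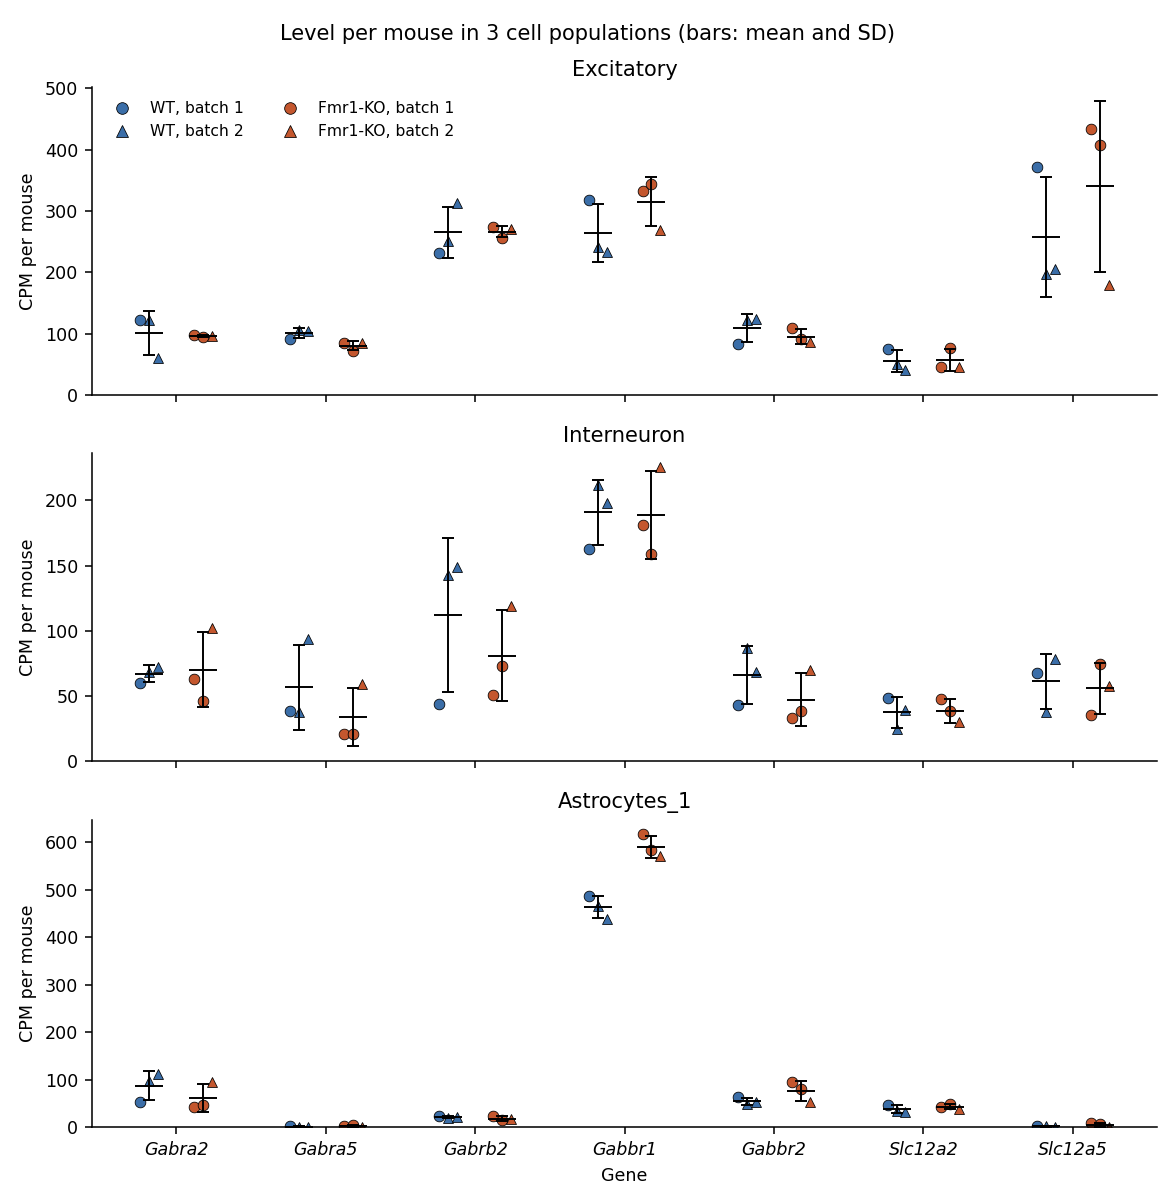
Level of the 7 genes in each mouse, in CPM, for excitatory neurons, interneurons and Astrocytes_1. Points are mice (circles first batch, triangles second batch), and bars give the mean and SD of each genotype. *Slc12a5* in excitatory neurons separates by batch and *Gabbr1* in Astrocytes_1 by genotype (439 to 486 CPM in WT, 572 to 617 in *Fmr1*-KO).

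WT and *Fmr1*-KO mice were compared to ask whether loss of FMRP changed the mRNA of these genes. Genes detected in 15% or more of a type's cells entered a quasi-likelihood fit in edgeR, and a gene counted as changed at an adjusted p (FDR) under 0.01 and a log2 fold change of 0.20 or more in size. In 11 cell types, 23 member comparisons passed this detection filter, and none met the criterion. Of all genes, 0.0% did in neurons, excitatory neurons, interneurons, Astrocytes_2, endothelial cells, pericytes and microglia, 0.0208% in Astrocytes_1, 0.0245% in OPC_1, 0.0423% in oligodendrocytes and 0.0499% in the ganglionic subtype. The same count with DESeq2 was 0, and 2 of the 23 had an unadjusted p under 0.05: *Gabbr1* in Astrocytes_1 and *Slc12a5* in neurons. In neurons, where 4 members were tested, 16.6% of all genes had such a p, and in Astrocytes_1, with 3 members tested, 4.72%. The tested members were 6 in excitatory neurons, 3 in OPC_1, 2 in Astrocytes_2, 1 each in interneurons, oligodendrocytes, endothelial cells, pericytes and microglia, and none in the ganglionic subtype. The 3 mice per genotype were separate animals.

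*Gabbr1* in Astrocytes_1 was the member comparison with the smallest p. Its level was 486, 466 and 439 CPM in WT 1 to 3 and 617, 584 and 572 in *Fmr1*-KO 1 to 3. All *Fmr1*-KO mice were above all WT mice, as were 2.33% of the genes tested in this subtype. The means were 464 ± 23.7 and 591 ± 23.4 CPM (SD, n = 3), and the log2 fold change was 0.34 (SE 0.08, 95% interval 0.16 to 0.51, edgeR adjusted p = 0.923). The difference was 0.30 within the first batch and 0.34 within the second. Without cells of shared barcodes it was 0.36. By library, *Gabbr1* was at 425 to 518 CPM in the 8 WT libraries and 506 to 628 in the 9 *Fmr1*-KO libraries, which overlapped slightly. The 8 astrocyte markers summed to 16994 to 20399 CPM in WT and 17177 to 21629 in *Fmr1*-KO (7 of 8 higher in *Fmr1*-KO, none changed), and the 6 markers of all neurons to 227 to 533 and 234 to 550, with none of either list at 0 in all mice. Their part in the result was not tested.

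Its partner *Gabbr2* in Astrocytes_1 was at 63.1, 48.3 and 52.9 CPM in WT and 96.2, 80.4 and 52.7 in *Fmr1*-KO. The genotypes overlapped through *Fmr1*-KO 3. The log2 fold change was 0.28 (SE 0.13, 95% interval −0.02 to 0.59, adjusted p = 0.923), with 0.48 in the first batch and 0.06 in the second. *Gabra2* in the same cells gave −0.16 (SE 0.10, 95% interval −0.40 to 0.08). In Astrocytes_2, *Gabbr1* gave −0.14 (SE 0.17, 95% interval −0.49 to 0.22).

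Within excitatory neurons the fold changes were small. *Gabra5* was at 91.2, 106 and 105 CPM in WT 1 to 3 and at 84.8, 71.2 and 85.1 in *Fmr1*-KO 1 to 3. The genotypes did not overlap, with all *Fmr1*-KO mice lower, as for 2.84% of tested genes, but the log2 fold change of −0.27 (SE 0.16, 95% interval −0.61 to 0.07) missed the threshold (adjusted p = 0.999). The 8 markers of maturing neurons were ordered in the same way in these cells, with sums of 3156 to 3873 CPM in WT and 2870 to 3148 in *Fmr1*-KO (7 of 7 tested lower, none changed, none at 0 in all mice). Their part in the result was not tested. The other 5 tested members overlapped between genotypes. Their log2 fold changes ran from −0.15 for *Gabbr2* (SE 0.19) to 0.15 for *Gabbr1* (SE 0.13), with *Slc12a5* at 0.02 (SE 0.14, 95% interval −0.27 to 0.32). In interneurons only *Gabbr1* passed the filter, at 0.11 (SE 0.16, 95% interval −0.22 to 0.44).

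With all neuron subtypes summed, *Slc12a5* was at 187, 161 and 160 CPM in WT 1 to 3 and at 136, 171 and 110 in *Fmr1*-KO 1 to 3. The genotypes overlapped, and the log2 fold change was −0.41 (SE 0.13, 95% interval −0.70 to −0.12, adjusted p = 0.196). *Gabra2* (−0.13, SE 0.22), *Gabrb2* (−0.22, SE 0.13) and *Gabbr1* (−0.06, SE 0.10) had intervals that included 0. Leaving out 1 mouse moved *Gabrb2* between −0.39 and −0.0435. In the same mice excitatory neurons were 49.5% to 75.3% of WT neurons and 35.6% to 48.6% of *Fmr1*-KO neurons. These ranges came close and were not tested, and the paper reported no detected change in the cell numbers of subtypes. The share of excitatory neurons in the neurons' UMIs overlapped, with 44.6% to 79.8% in WT and 27.6% to 54.4% in *Fmr1*-KO. The 8 excitatory markers summed to 1786 to 4768 CPM in WT and 1122 to 3114 in *Fmr1*-KO (5 of 5 tested lower, none changed), and the 5 ganglionic markers to 425 to 1029 and 815 to 1572 (3 of 3 tested higher, none changed), with none at 0 in all mice. The 8 markers of maturing neurons summed to 1889 to 3188 CPM in WT and 1301 to 2038 in *Fmr1*-KO (6 of 6 tested lower, median −0.49, none changed).

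Neurons were also compared with the same number of cells of a subtype in every mouse (162 excitatory, 59 interneuron and 61 ganglionic cells). Cajal-Retzius and SVZ cells were left out of this mix. In it *Slc12a5* was at 152, 132 and 178 CPM in WT and 155, 193 and 139 in *Fmr1*-KO. Its log2 fold change was then −0.01 (SE 0.17), and without cells of shared barcodes it was −0.15 (SE 0.16). At this equal mix of cells the genotypes overlapped, as they did before it. The cells were drawn once at random. UMIs per cell still differed between mice (medians of 976 to 8588 over all excitatory neurons), so the subtypes' shares of UMIs were not made equal. The other members tested in neurons were at 0.46 (SE 0.20, *Gabra2*), 0.0736 (SE 0.14, *Gabbr1*) and −0.04 (SE 0.15, *Gabrb2*) at the equal mix, none of them changed. The SVZ and Cajal-Retzius cells left out of it had the highest *Gabra2* levels (234 and 123 CPM).

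*Gabra5* had a UMI in 11.98% of neurons and so was below the detection filter there. Its level was 54.1, 87.7 and 90.9 CPM in WT 1 to 3 and 31.6, 32.0 and 59.0 in *Fmr1*-KO 1 to 3, and WT 1 lay below *Fmr1*-KO 3. With no filter it was the 1 member that met the criterion (log2 fold change −0.69, SE 0.17, adjusted p = 0.0061), as did 0.953% of the 16263 genes in that fit. At an equal mix of subtypes the value was −0.33 (SE 0.22, adjusted p = 1.00, with 0.0644% of genes called), and without cells of shared barcodes −0.60 (SE 0.19, adjusted p = 0.107). *Gabbr2* without the filter gave −0.49 (SE 0.16, adjusted p = 0.104) and *Slc12a2* −0.14 (SE 0.18).

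**Figure D3:**
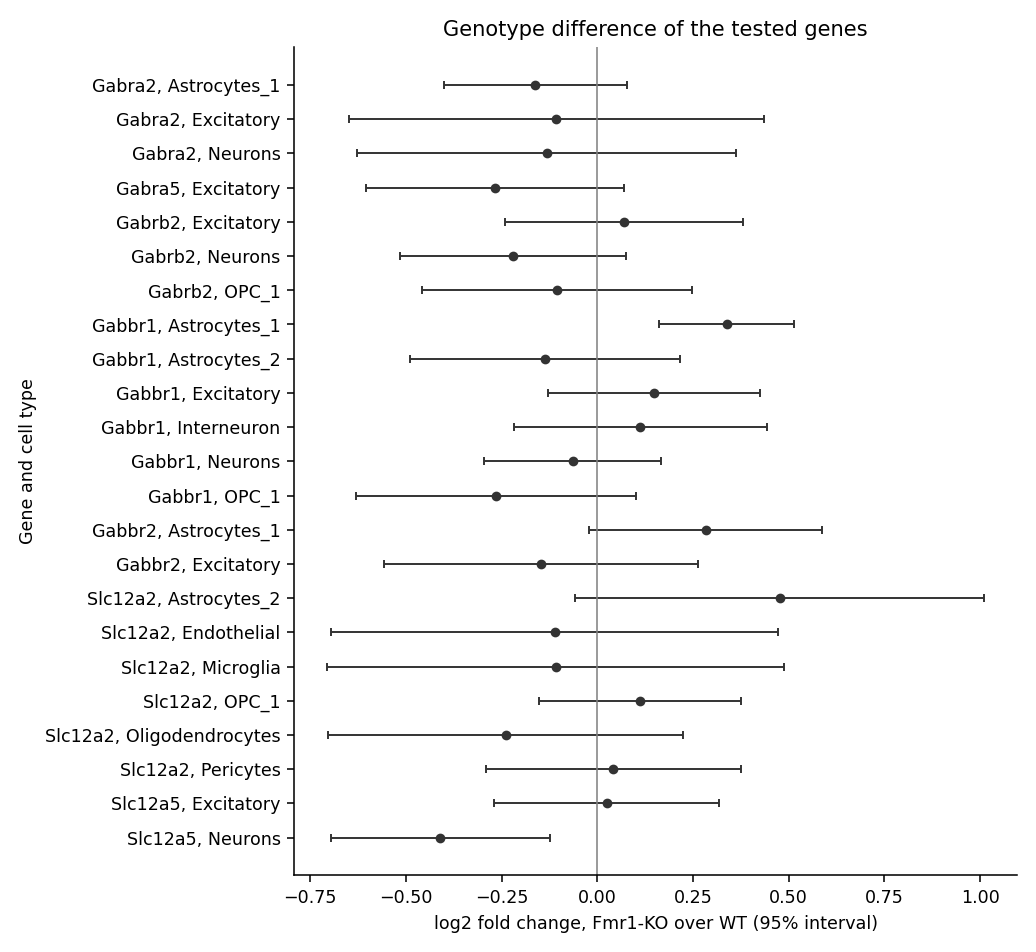
Log2 fold change of *Fmr1*-KO over WT for the 23 comparisons that passed the detection filter, with the 95% interval from edgeR's quasi-likelihood fit with batch as covariate. The interval leaves out 0 for *Gabbr1* in Astrocytes_1 (0.34) and *Slc12a5* in neurons (−0.41), and no comparison met the criterion for a change.

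*Slc12a2* was tested in 6 types outside neurons, and its fold changes ran from −0.24 in oligodendrocytes to 0.48 in Astrocytes_2. In pericytes, with the highest level, it was at 817, 659 and 868 CPM in WT and 898, 739 and 811 in *Fmr1*-KO. These overlapped, with a log2 fold change of 0.04 (SE 0.16, 95% interval −0.29 to 0.37). Astrocytes_2 had 62.9, 60.4 and 68.4 CPM in WT and 126, 99.9 and 65.3 in *Fmr1*-KO (0.48, SE 0.26, 95% interval −0.06 to 1.01), with *Fmr1*-KO 3 among the WT mice. In oligodendrocytes all *Fmr1*-KO mice (190 to 281 CPM) were below all WT mice (282 to 369), as for 4.36% of tested genes (−0.24, SE 0.24), and in OPC_1 all were above (138 to 148 against 132 to 136 CPM), as for 2.33% (0.11, SE 0.12).

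The number of *Slc12a5* UMIs per *Slc12a2* UMI was compared per mouse, since the balance of both cotransporters sets chloride in neurons. InDrop reads the 3′ end of an mRNA, so UMIs were not divided by gene length. In excitatory neurons the ratio was 4.91, 3.95 and 5.07 in WT 1 to 3 and 9.24, 5.26 and 3.90 in *Fmr1*-KO 1 to 3. In interneurons it was 1.39, 1.44 and 1.98 in WT and 0.746, 1.93 and 1.90 in *Fmr1*-KO. The genotypes overlapped in both, and the excitatory ratio exceeded that of interneurons in 6 of 6 mice. The difference between genotypes (log2, *Fmr1*-KO minus WT) was 0.32 in excitatory neurons (two-sided exact permutation p = 0.5) and −0.18 in interneurons (exact permutation p = 0.8). Within the first and second batch it was 0.51 and −0.20 in excitatory neurons, and −0.21 and 0.17 in interneurons. Without cells of shared barcodes it was 0.50 in excitatory neurons (exact permutation p = 0.3) and 1.03 in interneurons (exact permutation p = 0.7). The interneuron value rested on WT 2, whose ratio was then 0.111, against 0.938 in WT 1 and 1.83 in WT 3. WT 2 had 59 interneurons even with those cells kept. Its ratios of 1.44 and 0.111 thus came from few UMIs and depend on the 0.5 UMI added to each gene. Within the first and second batch the interneuron difference was then 0.0532 and 1.93.

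In all neurons together the ratio was 3.24, 3.32 and 3.69 in WT and 2.53, 2.85 and 2.85 in *Fmr1*-KO. All *Fmr1*-KO mice were lower, with a log2 difference of −0.32 and an exact permutation p = 0.1, the smallest that 3 against 3 mice can give. Adjusted over the 10 ratios compared, this p was 0.5. The difference was −0.28 within the first batch and −0.30 within the second. At an equal mix of subtypes the ratio was 2.52, 2.72 and 4.44 in WT and 2.69, 2.71 and 3.08 in *Fmr1*-KO, and the genotypes overlapped (−0.15, exact permutation p = 0.8). Without cells of shared barcodes they overlapped as well (−0.08, exact permutation p = 0.8), and with cells thinned to 700 UMIs, where the difference was −0.55 (exact permutation p = 0.6). The ganglionic subtype, with 9 *Slc12a5* UMIs, was too sparse for a ratio.

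The balance of the alpha subunits was read in the same way. In all neurons there were 1.57, 1.19 and 0.667 *Gabra2* UMIs per *Gabra5* UMI in WT 1 to 3 and 1.94, 2.01 and 1.54 in *Fmr1*-KO 1 to 3, with *Fmr1*-KO 3 below WT 1 (log2 difference 0.75, exact permutation p = 0.2, adjusted 0.5). At an equal mix the values were 0.895, 0.988 and 0.613 in WT and 2.02, 1.68 and 1.21 in *Fmr1*-KO. These did not overlap (0.97, exact permutation p = 0.1, the smallest possible here and unadjusted, within batches 1.04 and 0.64). The mix, drawn once, left out SVZ and Cajal-Retzius cells. Thinned to 700 UMIs the genotypes overlapped (0.33, exact permutation p = 0.3), as they did without cells of shared barcodes (0.49, exact permutation p = 0.4). With size factors the difference was 0.68 (exact permutation p = 0.1). Within excitatory neurons the values overlapped (0.32, exact permutation p = 0.7), as did those within interneurons (0.79, exact permutation p = 0.2). *Gabbr1* UMIs per *Gabbr2* UMI ranged from 6.405 to 10.8 in Astrocytes_1 and from 1.88 to 3.84 in excitatory neurons, and the genotypes overlapped in both (exact permutation p = 0.7 and p = 0.4).

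**Figure D4:**
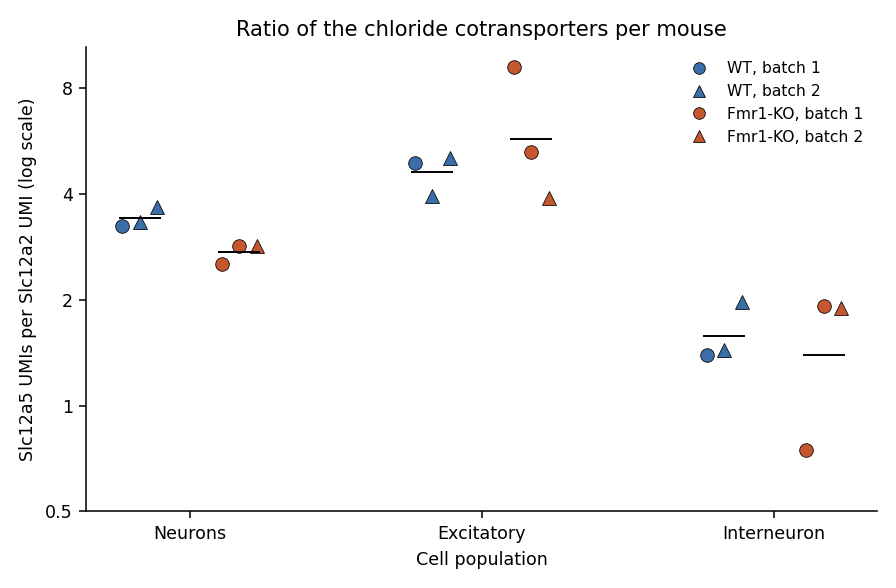
*Slc12a5* UMIs per *Slc12a2* UMI in each mouse (log scale) for all neurons together, excitatory neurons and interneurons. Circles are mice of the first batch and triangles of the second, and lines give the geometric mean of each genotype. Of these 3 populations, the genotypes separate in all neurons together (3.24 to 3.69 against 2.53 to 2.85). They overlap there at an equal mix of subtypes, without cells of shared barcodes and when thinned. The share of excitatory cells among neurons also separates, while their share of the UMIs overlaps, and the part of either was not tested.

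Differences of the genotype effect between cell types were tested with the mouse as a block. For *Gabbr1*, the effect in Astrocytes_1 exceeded that in neurons by 0.49 (log2, SE 0.15, 95% interval 0.15 to 0.83), and the adjusted p was 0.502. Of 3030 genes in this test 9.7% had an unadjusted p under 0.05 and 0.0% met the criterion. *Gabra2* gave −0.27 (SE 0.38) in the same comparison. Between excitatory neurons and interneurons, *Gabbr1* gave 0.29 (SE 0.30, 95% interval −0.36 to 0.93), with 0.0% of 2724 genes called. No member passed the filter in both interneurons and the ganglionic subtype.

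Of the other genes of these pathways, 46 from a list of GABA-A subunits, receptor partners, and chloride cotransporters with their kinases were in the table, and none changed in any cell type. In neurons 12 were tested, 2 higher and 10 lower in *Fmr1*-KO, with a median log2 fold change of −0.22 against −0.00 over all 3763 genes. In excitatory neurons 5 of 16 were higher and 11 lower (median −0.11 against 0.00), in interneurons 5 and 6 of 11 (median −0.03 against 0.00), and in Astrocytes_1 3 and 14 of 17 (median −0.07 against 0.00). In neurons the share of excitatory cells also separated by genotype while their share of the UMIs overlapped, as given above. The part of either in these values was not tested. The 2 subunits tested in neurons other than the members were both lower, as were 8 of 9 receptor partners. *Gabarapl1* (a GABARAP family protein) in interneurons and *Wnk2* (a kinase of the WNK family, which regulates the cotransporters) in Astrocytes_1 were lower in all *Fmr1*-KO mice than in all WT mice, with −0.10 (SE 0.14) and −0.46 (SE 0.18, adjusted p = 0.923). Of all tested genes, 4.0% in interneurons and 3.88% in Astrocytes_1 had this order. In neurons 2 of the 12 had it, against 4.76% of all tested genes.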

How the data were processed

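Cells of the P5 cortex were measured in 3 WT and 3 *Fmr1*-KO mice. The authors aligned reads to mm10 with TopHat2 2.0.14 (submitters' processing notes and methods), counted UMIs per RefSeq gene with ESAT, removed barcodes under 700 UMIs and clustered the cells; subtypes are those they deposited. The deposited table holds raw UMI counts. A deposited size factor per cell, a ratio, served in an alternative only.

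Counts were summed per mouse and subtype, without the 1113 doublets. Mice with fewer than 10 cells of a type were left out. edgeR 4.0.16 (R 4.3.3) was used with TMM normalization, batch as covariate and Benjamini-Hochberg adjustment over all tested genes of a type. The test was checked on simulated counts. A simulated log2 change of 1 was called for 90% to 100% of genes in neurons, excitatory neurons, interneurons and Astrocytes_1. A change of 0.5 was called for 42%, 26%, 19% and 61% there, and for 6% in the difference between Astrocytes_1 and neurons. Changes of that size could thus be missed. False calls numbered 3 in neurons, 2 in Astrocytes_1 and 0 in the other simulated comparisons. Each simulated set held many changed genes, dispersions on the fitted trend and no batch effect. The real fits called few genes or none and had batch differences. The shares may therefore be higher than those for a single gene in the real data. Two-sided exact permutation tests compared ratios, with 0.5 UMI added to each gene. Shares of cells are given as detected and thinned to 700 UMIs, which left out 53 cells. Limits for counts of 0 cover counting error only; intervals of fold changes include the spread between mice.

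Replicate numbers do not pair the mice. The members, lists and alternatives were chosen with earlier results of these data known. Named were the 7 members, the closest 3 genes for each by correlation, and pathway genes that did not overlap between genotypes; some genes of the lists are not reported here by name.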

Additional observations from a re-analysis of the deposited data

How the results depend on the processing

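The criterion for a change was met by 0 members in each cell type under each alternative run, except that 1 member, *Gabra5*, met it in neurons with no filter on low counts. In that fit its log2 fold change of −0.69 lost the criterion, keeping its direction, with no batch term (−0.95), the replicate block (−0.98), thinning (−0.84), DESeq2 (−0.70), an equal mix of neuron subtypes (−0.33), without shared barcodes (−0.60) and when any 1 mouse except WT 2 was left out (−0.80 to −0.61). Of 326 values of tested fold changes under alternatives, 294 kept their direction and 32 turned, none of a member that met the criterion.

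Turned values were as follows. With an equal mix in neurons they were *Gabra2* 0.46, *Gabbr1* 0.0736 and *Slc12a2* 0.0856. Thinned to 700 UMIs they were *Slc12a2* 0.40 in neurons, *Gabbr1* −0.155 and *Gabbr2* 0.295 in excitatory neurons, *Gabra2* 0.0619 in Astrocytes_1 and the cotransporter ratio 0.62 in interneurons. That ratio was 0.0338 with size factors and 1.03 without shared barcodes, where *Gabbr1* in neurons was 0.0267, *Slc12a2* 0.12 in endothelial cells and 0.0211 in microglia. With the replicate block they were *Gabra2* 0.0512 in excitatory neurons, *Gabbr1* 0.14 in Astrocytes_2 and *Slc12a2* 0.0276 in microglia. *Gabbr1* in Astrocytes_2 was 0.10 with no batch term, and *Slc12a5* in excitatory neurons was −0.00953 with no filter.

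Leaving out 1 mouse gave ranges through 0 for *Gabra2* in neurons (−0.42 to 0.15) and excitatory neurons (−0.34 to 0.11), *Gabbr1* in neurons (−0.16 to 0.0330) and OPC_1 (−0.62 to 0.0611), *Gabrb2* in excitatory neurons (−0.0593 to 0.20) and OPC_1 (−0.20 to 0.000152), *Gabbr2* (−0.51 to 0.27) and *Slc12a5* (−0.16 to 0.19) in excitatory neurons, *Slc12a2* in Astrocytes_2 (−0.000292 to 0.84), endothelial cells (−0.98 to 0.46), pericytes (−0.0545 to 0.15) and microglia (−0.72 to 0.45), the *Gabra2* difference between Astrocytes_1 and neurons (−0.61 to 0.18), and the cotransporter ratio in excitatory neurons (−0.0259 to 0.60) and interneurons (−0.41 to 0.27). The causes were not tested.

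The subtype with the highest level of each gene stayed above the next under the alternatives run. Thinned, the log2 ratio was 2.75 for *Gabra2* in SVZ over Cajal-Retzius cells (1.08 unthinned), 1.97 for *Gabrb2* in excitatory neurons over Cajal-Retzius cells (1.11) and 3.52 for *Slc12a5* in excitatory neurons over interneurons (2.30). Thinned interneurons of the second batch held *Slc12a5* at 0 to 27.3 CPM, so the value of 3.52 depends on levels at the floor. With size factors the log2 ratio was 2.08 for *Gabra5* in excitatory neurons over interneurons (1.18). Doublets have no subtype, so levels with doublets kept were not run. Same-numbered mice deviated together for 2 of the 3 numbers, whose mice share a batch, and not for the third, whose mice do not (correlations in neurons 0.78, 0.80 and −0.50), and the replicate block changed no call other than that of *Gabra5* with no filter. Values without shared barcodes and the alternatives to the unfiltered fit in neurons were chosen after seeing the data. Depth limits the smaller subtypes: SVZ values rest on 10 to 20 cells in each of 4 mice and Cajal-Retzius values on 14 to 40 in each of 5.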
